A study of Mus musculus with 4 samples.

Results

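Of the neurotrophins and their receptors, 7 mouse genes were examined in sympathetic ganglia (SG) of cold-exposed mice: the ligand genes *Bdnf*, *Ntf3* and *Ntf5*, the receptor tyrosine kinase genes *Ntrk2* and *Ntrk3*, and the genes *Ngfr* and *Sort1*, which encode the receptors p75 and sortilin. They were taken as named members of the family and were found by their Entrez identifiers among 17667 genes with reads in at least 1 library. In all 4 libraries 5 of the 7 were listed, *Ntf3* was listed in 1 library, and *Ntf5* in 0. The 4 receptor genes stood at very unequal levels, each differing by at most 1.20-fold between libraries, and the ligand genes had between 0 and 7 reads.

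The libraries were prepared from T1–T4 SG, which supply the interscapular brown fat, of C57BL/6 mice 12 weeks old that spent 1 day at 5 °C, with the RNA of 6 mice pooled in each. They were 2 libraries labelled WT (WT_1 and WT_2), 1 labelled TRKC+/- (mice haploinsufficient for TRKC, the NT-3 receptor, in the whole body) and 1 labelled AdNTF3-Tg (mice with an NT-3 coding sequence under the adiponectin promoter, which drives it in adipocytes and not in neurons). Every group had the same cold exposure, so no value at room temperature was compared. The paper describes respective WT controls for the mutants, but the labels do not say which WT library was kept with which mutant. Each mutant was therefore set against both, and the WT libraries may be controls of different lines. With 1 library for each mutant, no difference between genotypes has a replicate check of its own, and the 2 WT libraries give the only view of how libraries of 1 label differ.

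Neurotrophins are secreted growth factors that neurons take up from the tissues they innervate. Each binds a Trk receptor tyrosine kinase, with BDNF and NT-4/5 (the product of *Ntf5*) as ligands of TRKB (*Ntrk2*) and NT-3 as the main ligand of TRKC (*Ntrk3*). All of them also bind p75 (*Ngfr*), a receptor without a kinase that works beside Trk receptors or, together with sortilin (*Sort1*), as a receptor of the uncleaved precursors. In the sympathetic nervous system the ligands are made largely by target tissues and carried back along the axon with their receptors.

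Each library held from 8665955 to 8894985 reads assigned to genes, and 3 reads, taken as the smallest signal that can be told from 0, correspond to between 0.337 and 0.346 CPM (reads scaled to a common library total). The label of the tissue was checked against marker genes. All 16 markers of sympathetic neurons were listed in every library, led by *Th* and *Npy*, and their summed level lay between 13330 and 14150 FPKM (reads scaled to transcript length and to the library total, so that levels of different genes can be compared). Markers of satellite glia (8 of 8 listed, led by *Apoe* and *Fabp7*) summed to between 2051 and 2375 FPKM, those of myelinating Schwann cells (6 of 6, led by *Pmp22* and *Mbp*) to between 568 and 603.3, and those of fibroblasts (6 of 6, led by *Dcn* and *Col1a2*) to between 248.4 and 323.9. Endothelial markers (5 of 5, led by *Pecam1* and *Cdh5*) summed to at most 30.76 FPKM and macrophage markers (6 of 6, led by *Csf1r* and *Cd68*) to at most 44.71. Sensory neuron markers summed to between 198 and 210.5 FPKM, nearly all of it from *Avil*, so the sum is not a level of the whole list. *Pvalb*, the next highest, had 5.4 FPKM in WT_1 and was not listed in WT_2. The rest of that list reached at most 0.7 FPKM (*Scn10a* in AdNTF3-Tg). Markers of muscle, blood and fat differed more between libraries, and where their RNA came from was not tested. Skeletal muscle markers (led by *Acta1* and *Tnnt3*) summed to 79.95 FPKM in WT_1, 2.99 in WT_2, 36.38 in the library labelled TRKC+/- and 29.11 in AdNTF3-Tg, and red blood cell markers (led by *Hbb-bs* and *Hba-a1*) to 180.5, 73.72, 156 and 95.79. Adipocyte markers (8 of 8, led by *Fabp4* and *Cidea*) had lower sums in the mutants, at 384.7 and 348.9 FPKM in WT_1 and WT_2, 214.1 in the library labelled TRKC+/- and 281.5 in AdNTF3-Tg. Most of the difference lay in *Fabp4* and *Ucp1*, and not all members followed, since *Adipoq* was higher in the library labelled TRKC+/- (9 FPKM) than in WT_2 (7.56) and *Plin1* was highest in AdNTF3-Tg (6.18). These are bulk libraries, in which fewer cells of a type and less RNA per cell cannot be told apart.

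*Ngfr* (Entrez 18053, chromosome 11, 95568818 to 95587698 on GRCm38.p6), the gene of p75, was the most abundant of the 7. It had 316.1 FPKM (9225 reads) in WT_1, 360.2 (10664) in WT_2, 317.6 (9477) in the library labelled TRKC+/- and 339.8 (10010) in AdNTF3-Tg. WT_1 was lowest and WT_2 highest, and both mutants fell between them. At these levels *Ngfr* stood above 98.7% to 99% of the genes listed in a library, where it ranked between 155 and 216 from the top. Across the 4 libraries its CPM varied with a coefficient of variation of 6.02%, where counting error alone would give about 1.01%.

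*Ntrk2* (Entrez 18212, chromosome 13, 58806472 to 59133970) came next. Its levels were 32.01 FPKM (1738 reads) in WT_1, 31.72 (1784) in WT_2, 32.83 (1880) in the library labelled TRKC+/- and 33.04 (1815) in AdNTF3-Tg, a spread of 1.04-fold from lowest to highest. The 4 libraries were almost level, and the coefficient of variation of the CPM, 2.40%, was about that of counting error alone (2.35%). The files list 2 transcripts for *Ntrk2*, and the mean transcript length assigned to it, which moves with their shares, was between 6296 and 6485 bases. TRKB is made both with its kinase and as a truncated receptor that glia in particular express, and a count per gene does not separate the forms.

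*Sort1* (Entrez 20661, chromosome 3, 108283974 to 108361519) encodes sortilin, which sorts proteins between the Golgi, endosomes and cell surface as well as binding neurotrophin precursors. Its levels were 15.38 FPKM (911 reads) in WT_1, 14.25 (860) in WT_2, 17.03 (1033) in the library labelled TRKC+/- and 15.73 (944) in AdNTF3-Tg. Both mutants lay above both WT libraries, as they did for *Ntrk2* but for no other of the 5 genes listed in every library. Both mutants lay on the same side of both WT libraries for 31.6% of all genes.

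*Ntrk3* (Entrez 18213, chromosome 7, 78179986 to 78581034), the gene of TRKC and the targeted gene of the TRKC+/- mice, was the least abundant receptor gene. It had 2.45 FPKM (78 reads) in WT_1, 2.52 (83) in WT_2, 2.72 (91) in the library labelled TRKC+/- and 2.32 (76) in AdNTF3-Tg. The library labelled TRKC+/- held the most reads. From the 2 WT libraries together, 81.8 reads would be found at the WT level and 40.9 at 50% of it, against the 91 that were found, so that the targeted gene was not lower in the library that carries its label. *Ntrk3* ranked above 31.4% to 33.9% of the listed genes. For this gene too 2 transcripts are listed, with a mean length between 3719 and 3819 bases. The sources used here do not say which exons the disrupted allele lacks, and a count per gene does not separate its transcripts from those of the intact allele, so how far this count checks the label cannot be told.

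*Bdnf* (Entrez 12064, chromosome 2, 109674700 to 109727043) was the one ligand gene listed in all libraries, at 0.09 FPKM (3 reads) in WT_1, 0.17 (6) in WT_2, 0.09 (3) in the library labelled TRKC+/- and 0.20 (7) in AdNTF3-Tg. With at most 7 reads in a library, no difference between libraries was detectable at this depth. *Ntf3* (Entrez 18205, chromosome 6, 126101412 to 126166772), the gene of NT-3, had 2 reads (0.18 FPKM) in the library labelled TRKC+/-, under the floor of 3 reads, and was not listed in WT_1, WT_2 or AdNTF3-Tg. *Ntf5* (Entrez 78405, chromosome 7, 45413695 to 45417179) was not listed in any library. A count of 0 allows up to 0.346 CPM in WT_1, 0.339 in WT_2, 0.337 in the library labelled TRKC+/- and 0.341 in AdNTF3-Tg.

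The transgene of AdNTF3-Tg mice holds the full coding sequence of NT-3, so its transcripts would count as *Ntf3*. The library labelled AdNTF3-Tg had 0 reads of *Ntf3*. It held 71 reads (6.92 FPKM) of *Adipoq*, the gene whose promoter drives the transgene, against 144 reads in WT_1, 78 in WT_2 and 94 in the library labelled TRKC+/-. Reads of adipocyte genes were thus present in the ganglion libraries of every group. *Ntf3* was not listed in AdNTF3-Tg, nor in WT_1 and WT_2, which held more reads of *Adipoq*. How many transgene reads to expect beside 71 reads of *Adipoq* was not worked out. The 0 reads therefore do not show whether the transgene was active in the fat behind these reads. The ganglion data hold no measurement of NT-3 made in fat.

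**Figure D1:**
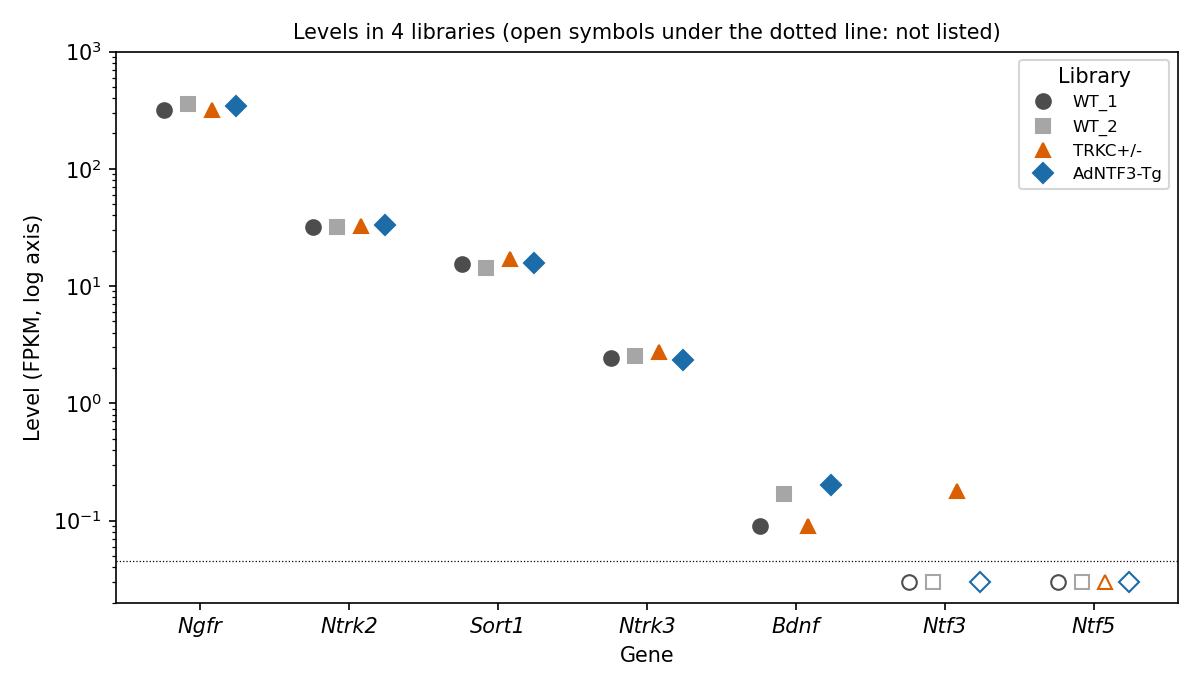
Level of each gene (FPKM, log axis) in each of the 4 libraries, with 1 symbol per library and no error bars since each is 1 library. The receptor genes sit in 4 separate bands from about 2.32 to 360.2 FPKM, *Bdnf* lies between 0.09 and 0.20, and open symbols under the dotted line stand for libraries in which *Ntf3* or *Ntf5* was not listed.

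The receptor genes kept the order *Ngfr*, *Ntrk2*, *Sort1*, *Ntrk3* in each of the 4 libraries. *Ngfr* made up between 85.8% and 88.1% of their summed FPKM, *Ntrk2* between 7.76% and 8.87%, *Sort1* between 3.49% and 4.6%, and *Ntrk3* between 0.593% and 0.735%. The mRNA of the p75 gene was thus 9.67 to 11.4 times as abundant per length as that of *Ntrk2*, and 117 to 146 times as abundant as that of *Ntrk3*. *Ntrk2* mRNA was 12.1 to 14.2 times as abundant as that of *Ntrk3*.

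These ratios were compared between libraries with counting intervals, which are exact Clopper-Pearson 95% intervals on reads and cover counting error only. The closest neighbours in the order were *Ntrk2* and *Sort1*. Their ratio was 2.08 (1.92 to 2.26) in WT_1, 2.23 (2.05 to 2.42) in WT_2, 1.93 (1.79 to 2.08) in the library labelled TRKC+/- and 2.10 (1.94 to 2.27) in AdNTF3-Tg, so that the order of this pair was beyond counting error in each library. *Ngfr* over *Ntrk3* was 129 (103 to 163), 143 (115 to 180), 117 (95 to 145) and 146 (117 to 186) in the same order of libraries, with intervals that all overlapped. *Sort1* over *Ntrk3* was 6.28 (4.98 to 8.02), 5.65 (4.51 to 7.17), 6.26 (5.05 to 7.85) and 6.78 (5.36 to 8.68), again with overlapping intervals. *Ngfr* over *Sort1* was lowest in the library labelled TRKC+/-, at 18.6 (17.5 to 19.9), and highest in WT_2, at 25.3 (23.6 to 27.1), while WT_1 had 20.6 (19.2 to 22.0) and AdNTF3-Tg 21.6 (20.2 to 23.1). The library labelled TRKC+/- thus lay below both WT libraries in that ratio, with an interval that overlapped that of WT_1 but not that of WT_2, and the intervals of the WT libraries did not overlap each other. At the bottom of the order *Ntrk3* was 11.6 to 30.2 times *Bdnf*, on few reads, and in the library labelled TRKC+/- *Bdnf* (3 reads) and *Ntf3* (2 reads) could not be ordered.

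**Figure D2:**
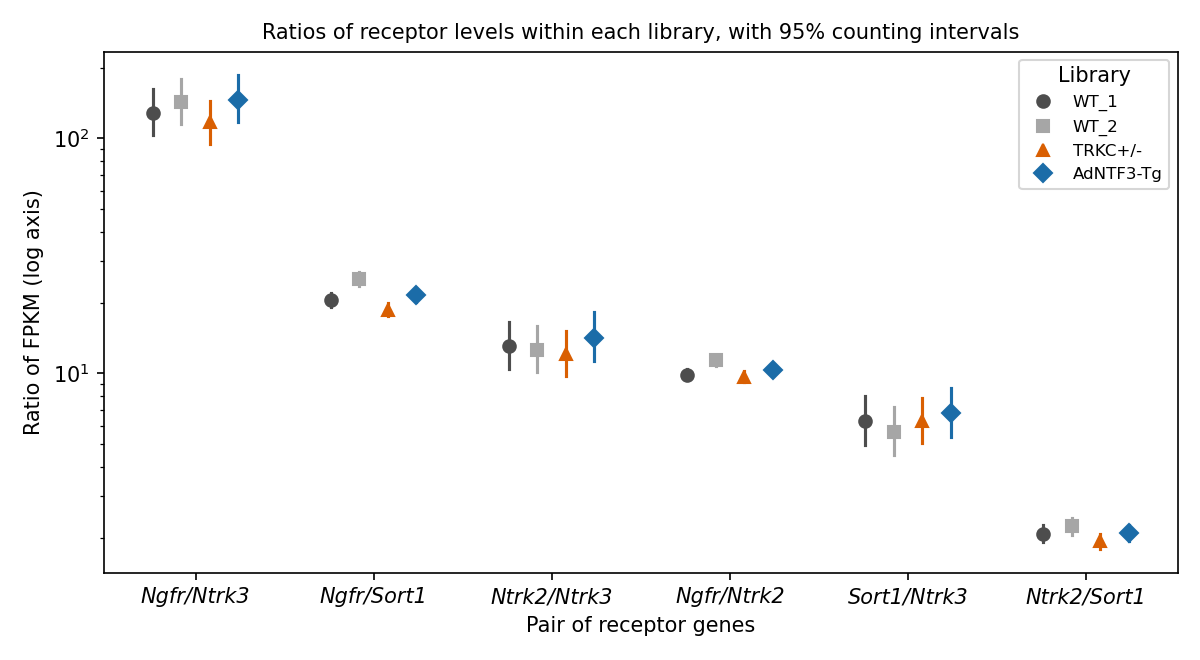
Ratio of the FPKM of pairs of receptor genes (log axis) within each library, with 95% counting intervals as vertical lines that cover counting error only. *Ngfr*/*Ntrk3* lies between 117 and 146 and *Ntrk2*/*Sort1* between 1.93 and 2.23, and WT_2 has the highest value for both *Ngfr*/*Sort1* (25.3) and *Ngfr*/*Ntrk2* (11.4).

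Whether the genes responded to a lower dose of the receptor gene, or to more NT-3 in fat, was examined with fold changes. Each is the log2 ratio of FPKM values to which 0.1 had been added, a scale on which changes of low genes such as *Bdnf* come out too small. A gene counted as called when it was past the study's cutoff of 0.5 in the same direction against both WT libraries. In the library labelled TRKC+/- 0 of 5 tested members of the family were called, where 4.27% of 15275 genes were. AdNTF3-Tg gave 0 of 5 as well, against 5.7% of all genes. The 2 WT libraries differed by 0.5 or more for 13.4% of genes, and *Bdnf*, with 3 and 6 reads, was among them. A mutant value outside the range of the WT libraries was found for 3 of the 5 genes in the library labelled TRKC+/- (*Ntrk2*, *Ntrk3* and *Sort1*, against 62.6% of all genes) and for 4 of 5 in AdNTF3-Tg (the same genes and *Bdnf*, against 67.6%). Counting intervals that excluded 0 in 1 direction against both WT libraries were found for 1 of 5 in the library labelled TRKC+/- (*Sort1*, against 4.46% of all genes) and for 0 of 5 in AdNTF3-Tg (10.2% of all genes, 4.84% higher and 5.31% lower). Such intervals narrow with more reads, and these shares were not matched for read number.

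For *Ntrk3* the log2 fold change against the mean of the WT libraries was 0.13 in the library labelled TRKC+/- (0.15 against WT_1, 0.11 against WT_2). The counting interval of the read ratio to the pooled WT reads was −0.23 to 0.53, that is, between 0.851 and 1.45 times the WT level. In AdNTF3-Tg the log2 fold change was −0.10, with an interval of −0.50 to 0.31 (0.705 to 1.24 times). Between WT_1 and WT_2 it was −0.04. The mutants fell on opposite sides of the WT libraries, but their direct log2 fold change, AdNTF3-Tg over the library labelled TRKC+/-, was −0.22 with an interval of −0.70 to 0.21, which includes 0.

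For *Ntrk2* the log2 fold change was 0.04 in the library labelled TRKC+/- (interval −0.0098 to 0.15, or 0.993 to 1.11 times the WT level) and 0.05 in AdNTF3-Tg (−0.047 to 0.12, or 0.968 to 1.085 times), and the WT libraries differed by 0.01. All of these intervals include 0.

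*Ngfr* had so many reads that counting intervals were narrow and the difference between WT libraries was itself outside counting error, at −0.19 for WT_1 over WT_2 (−0.22 to −0.14). The library labelled TRKC+/- was level with WT_1 (0.01, −0.040 to 0.043) and lower than WT_2 (−0.18, −0.22 to −0.14). AdNTF3-Tg was above WT_1 (0.10, 0.054 to 0.14) and below WT_2 (−0.08, −0.12 to −0.045). The size and direction of a change in *Ngfr* therefore depended on the WT library used, and none of these differences exceeded that between the WT libraries.

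*Sort1* showed the largest difference among the well-counted receptor genes, with a log2 fold change of 0.20 in the library labelled TRKC+/-. This was 0.15 against WT_1 (0.014 to 0.27) and 0.26 against WT_2 (0.12 to 0.39), or 1.06 to 1.24 times the pooled WT reads. Higher reads with intervals that exclude 0 against both WT libraries were found for 2.34% of all genes in that library. That share takes in genes with few reads, whose intervals are wide, and was not matched to the read number of *Sort1*. The interval between the WT libraries alone excluded 0 for 20.5% of genes, so that counting error is only part of the spread. In AdNTF3-Tg *Sort1* was 0.03 over WT_1 (−0.10 to 0.16) and 0.14 over WT_2 (0.0064 to 0.28), and between WT_1 and WT_2 it was 0.11 (−0.023 to 0.25). Summed markers of satellite glia were 2352, 2051, 2375 and 2144 FPKM and those of myelinating Schwann cells 584.5, 569.4, 603.3 and 568 FPKM in WT_1, WT_2, the library labelled TRKC+/- and AdNTF3-Tg, highest in the same library as *Sort1*. The sums of sympathetic neuron and endothelial markers were also highest there (14150 and 30.76 FPKM), while those of fibroblast, macrophage, adipocyte, skeletal muscle and red blood cell markers were highest in WT_1 and that of sensory neuron markers in AdNTF3-Tg. Within the satellite glia list *Fabp7* was higher in WT_1 (341.7 FPKM) than in the library labelled TRKC+/- (285.7). The part of these cell types in the level of *Sort1* was not tested.

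For *Bdnf* the log2 fold change was −0.28 in the library labelled TRKC+/- and 0.38 in AdNTF3-Tg, with counting intervals of −3.13 to 1.395 and −1.03 to 2.22. Single reads decide such values. The log2 fold change was 0 against WT_1 and −0.51 against WT_2 in the library labelled TRKC+/-, and 0.66 and 0.15 in AdNTF3-Tg. For *Ntf3* no fold is given, since every library was under the floor of 3 reads.

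A test that takes the spread between libraries from the 2 WT libraries was run beside these folds, with the assumption that each mutant library varies as they do. In edgeR's quasi-likelihood test with Benjamini-Hochberg adjustment over 14156 genes, which leaves out *Bdnf* for its low counts, the adjusted p in the library labelled TRKC+/- was 0.999 for *Ntrk2*, *Ntrk3*, *Ngfr* and *Sort1*, of which *Sort1* had the smallest unadjusted p (edgeR, 0.0839). In AdNTF3-Tg the adjusted p by edgeR was 0.934 for *Ntrk2*, 0.957 for *Ntrk3*, 0.987 for *Ngfr* and 0.886 for *Sort1*. The test called 1 of all genes (0.00706%) in the library labelled TRKC+/-, the brown fat gene *Ucp1*, and 0 in AdNTF3-Tg. An unadjusted p under 0.05 by edgeR was found for 273 of the 14156 genes in the former and 832 in the latter, counts that are not read as changed genes. An adjusted p this high does not show that a gene was unchanged. DESeq2 called 2 genes (0.0141%) in the library labelled TRKC+/-, *Ucp1* and *Npcd*, both lower, and 0 in AdNTF3-Tg. The spread of each gene rested on 1 residual degree of freedom, combined with a spread shared over genes (median of 6.8 prior degrees of freedom in edgeR).

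**Figure D3:**
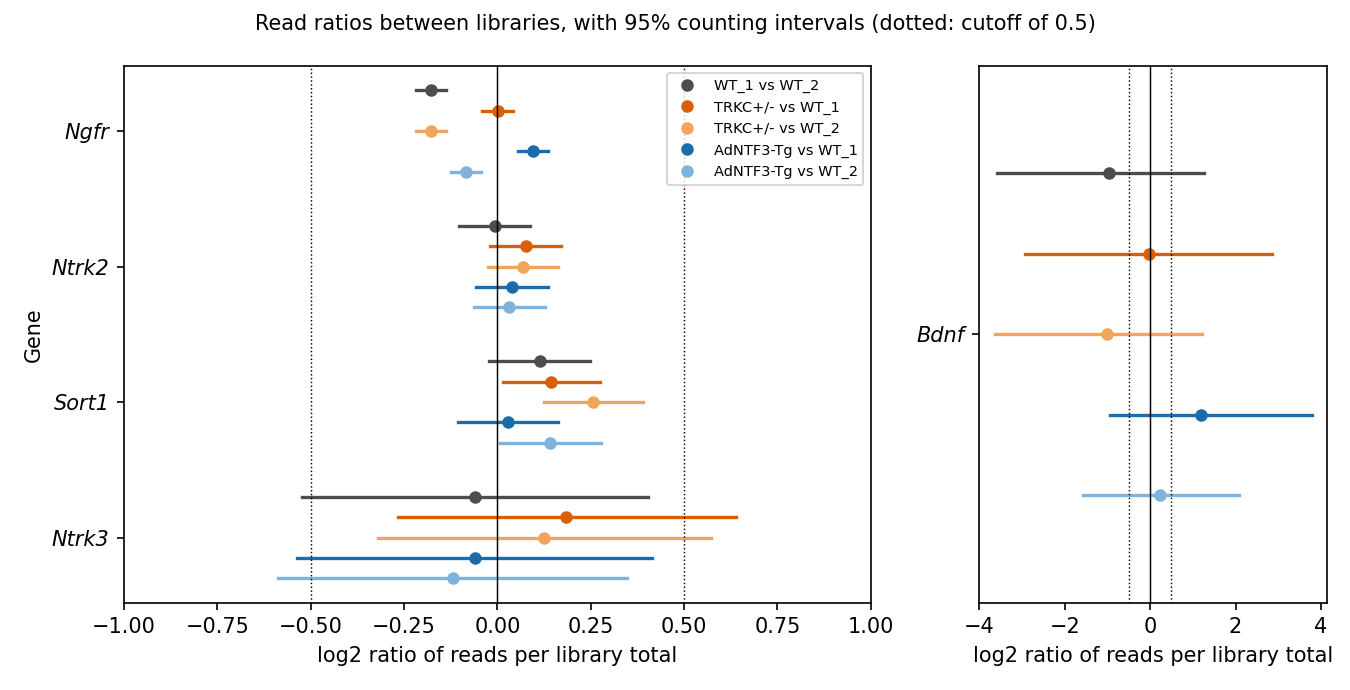
Log2 ratio of reads per library total for *Ngfr*, *Ntrk2*, *Sort1* and *Ntrk3* (left) and *Bdnf* (right, wider axis), with 95% counting intervals as lines and the cutoff of 0.5 dotted. Points are WT_1 over WT_2 and each mutant over each WT library, every point of the 4 receptor genes lies inside the cutoff, and the *Bdnf* intervals span 0.

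The genes that act on these ligands and receptors were taken from 7 lists, of 76 genes in all, of which 71 were listed in every library. In the library labelled TRKC+/- 0 of the 71 were called higher and 0 lower (1.78% and 2.49% of all genes), and in AdNTF3-Tg also 0 and 0 (2.12% and 3.58%). These shares are not matched for level. Of the 653 and 871 genes called in either direction, 209 and 332 had a mean of at least 1 FPKM. The median log2 fold change of the 71 genes was 0.044 in the library labelled TRKC+/- and 0.014 in AdNTF3-Tg, beside 0 and −0.0027 over all genes tested.

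Upstream of the receptors, precursors are cut by furin-like convertases inside the cell and by plasmin and matrix metalloproteinases outside it. Of 11 genes of these proteases and their inhibitors, 8 were listed in all libraries. *Serpini1*, which encodes the protease inhibitor neuroserpin, had the highest mean over the libraries (74.7 FPKM), followed by *Furin* (12.4) and the plasminogen activator gene *Plat* (10.8). *Plg*, the gene of plasminogen, and *Mmp7* were not listed in any library, and *Mmp9* had at most 4 reads. The median log2 fold change of the list was −0.030 in the library labelled TRKC+/- and 0.0019 in AdNTF3-Tg.

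Relatives of sortilin and co-receptors of p75 made up 8 genes, 6 of them listed in all libraries. The highest were *Sorcs2* (14.2 FPKM), a sortilin relative that binds p75, *Lingo1* (13.8), a p75 partner in the Nogo receptor complex, and *Nradd* (7.86), a death-domain relative of p75. *Sort1* itself thus stood at the level of *Sorcs2*, and *Sorcs3* was at most 0.08 FPKM. The medians were 0.13 and 0.081. The Nogo receptor gene *Rtn4r*, named after its values were seen, had the highest log2 fold change of the 71 genes in the library labelled TRKC+/- (0.41), with 50, 41, 62 and 56 reads in WT_1, WT_2, the library labelled TRKC+/- and AdNTF3-Tg, or 0.27 against WT_1 and 0.56 against WT_2.

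After ligand binding, p75 is shed by ADAM proteases and cut in the membrane by γ-secretase. All 9 genes of this list were listed in every library, led by the γ-secretase subunit genes *Psenen* (80.6 FPKM) and *Ncstn* (33.2), with medians of 0.069 and −0.031. The 11 genes of intracellular partners of p75 ranged in mean level from 5.41 FPKM for *Traf6* upwards, and the highest means were 337.5 FPKM for *Arhgdia*, 329.9 for *Maged1* (NRAGE) and 258.1 for *Bex3* (NADE). Their medians were 0.088 and −0.0011. *Ripk2*, an adaptor kinase of p75 also named after its values were seen, had 88, 76, 109 and 109 reads, listed as for *Rtn4r*. Both mutants lay above both WT libraries (0.28 and 0.50 in the library labelled TRKC+/-, 0.30 and 0.52 in AdNTF3-Tg) without being called in either.

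On the side of the Trk receptors, 5 of 5 genes of co-receptors and binding partners were listed throughout. They were led by *Kidins220* (47.2 FPKM), a scaffold of Trk receptors, *Ptprs* (38.3), whose protein binds TRKC at synapses, and *Islr2* (11.5), with medians of 0.049 and 0.17. Of the 21 genes of adaptors and enzymes that act on active Trk receptors, 21 were listed throughout. *Ndfip1* (533.4 FPKM) and *Nedd4* (129.7) encode parts of a ubiquitin ligase system that acts on Trk receptors, and *Shc1* (69.5) an adaptor of the Trk juxtamembrane site. The medians were 0.013 and 0.044. *Sh2b2*, named after its values were seen, was the one gene past 0.5 against the mean of the WT libraries among the 71 listed in every library (0.52 in AdNTF3-Tg), with 45, 30, 32 and 55 reads in the order above and 0.56 between the WT libraries. The 11 genes of endocytosis and retrograde transport of Trk receptors were led by *Cfl1* (772.6 FPKM), *Rab7* (234.2) and *Rac1* (132.7), with medians of 0.017 and −0.013.

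**Figure D4:**
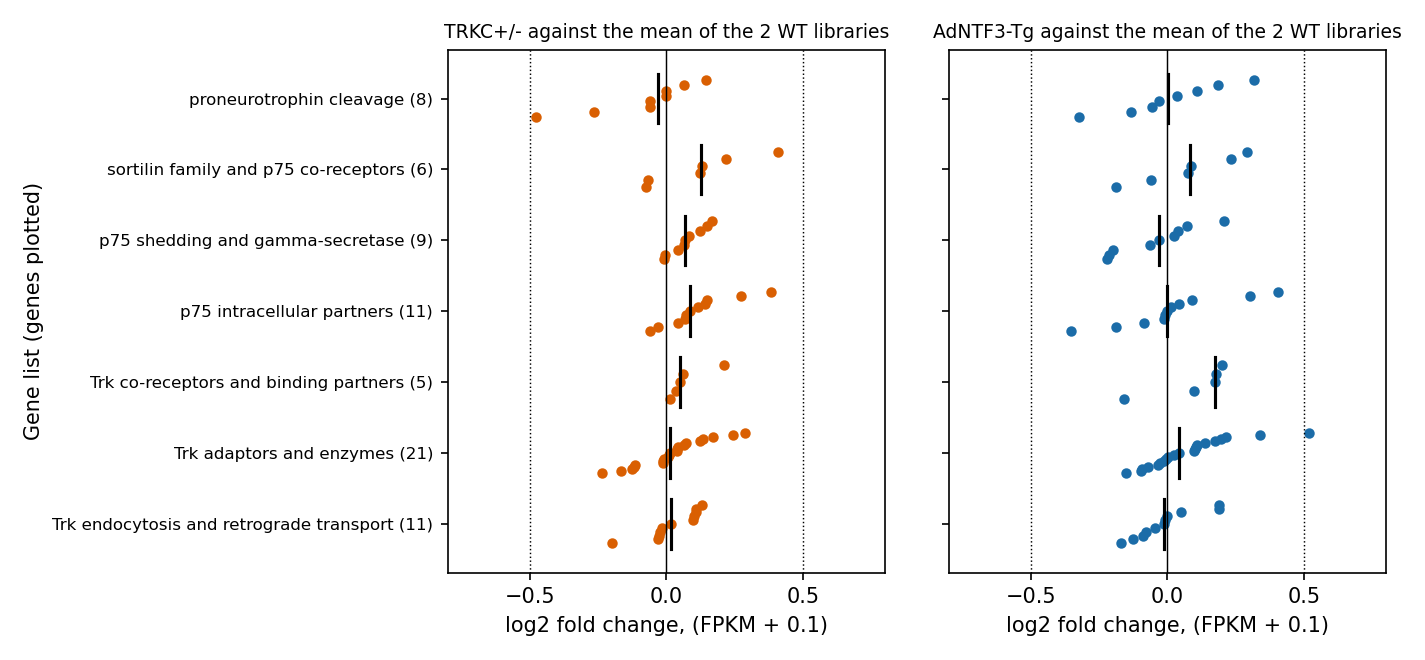
Log2 fold change of each listed gene against the mean of the 2 WT libraries, by gene list, in the library labelled TRKC+/- (left) and in AdNTF3-Tg (right), on the log2(FPKM + 0.1) scale. Each point is 1 gene, the bar is the median of the list, and 1 of 71 genes lies past the dotted cutoff of 0.5, in AdNTF3-Tg.

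The profiles of the receptor genes over the 4 libraries were compared with those of 134 genes of the pathway and marker lists with a mean of at least 1 FPKM, by the root mean square difference of log2(FPKM + 0.1) after centring each gene. Nearest to *Ntrk2* were *Dbh* (0.0165) and *Ptpn11* (0.01815), nearest to *Ntrk3* were *Fscn1* (0.0170) and *Phox2a* (0.0175), nearest to *Ngfr* were *Sos1* (0.0255) and *Ddc* (0.0389), and nearest to *Sort1* were *Irak1* (0.0279) and *Mal* (0.0437). With 4 libraries that vary this little, such nearness is a description of flat profiles. *Dbh*, for instance, the gene of dopamine β-hydroxylase, lay between 2100 and 2170 FPKM.

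The promoters of the most abundant receptor gene and of the gene of NT-3, the ligand that the AdNTF3-Tg mice overexpress, are shown. The sequences are those of RefSeq on GRCm38.p6, in windows of 300 bases that span an annotated start, printed 5′ to 3′ on the strand of the gene, which is the minus strand for both. *Ngfr* has 1 such entry and *Ntf3* has 2. Of the 7 genes, 4 matched an entry (*Bdnf*, *Ntf3*, *Ngfr* and *Ntrk2*), and no entry was matched for *Ntf5*, *Ntrk3* or *Sort1*. Capitals mark the GC box GGGCGG or its complement CCGCCC.
*Ngfr*, chr11:95587649-95587948: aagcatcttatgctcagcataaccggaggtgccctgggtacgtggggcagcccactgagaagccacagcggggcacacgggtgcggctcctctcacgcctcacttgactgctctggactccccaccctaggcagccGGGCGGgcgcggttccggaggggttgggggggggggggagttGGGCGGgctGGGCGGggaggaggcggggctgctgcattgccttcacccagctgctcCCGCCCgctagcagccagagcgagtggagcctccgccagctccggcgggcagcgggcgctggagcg
*Ntf3* start 1, chr6:126166695-126166994: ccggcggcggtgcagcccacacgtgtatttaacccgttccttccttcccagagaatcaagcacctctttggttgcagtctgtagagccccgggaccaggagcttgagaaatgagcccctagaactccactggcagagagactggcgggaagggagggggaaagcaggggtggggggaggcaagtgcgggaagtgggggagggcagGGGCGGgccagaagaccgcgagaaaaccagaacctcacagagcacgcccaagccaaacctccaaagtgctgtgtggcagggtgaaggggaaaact
*Ntf3* start 2, chr6:126164911-126165210: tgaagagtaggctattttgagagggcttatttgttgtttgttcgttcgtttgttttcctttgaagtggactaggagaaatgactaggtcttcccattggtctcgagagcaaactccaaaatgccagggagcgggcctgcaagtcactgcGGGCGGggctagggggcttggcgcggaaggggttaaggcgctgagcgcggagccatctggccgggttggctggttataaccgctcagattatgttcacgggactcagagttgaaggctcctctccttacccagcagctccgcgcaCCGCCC

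The *Ngfr* promoter held 23 CpG dinucleotides in 300 bases (more than 78.5% of 32851 promoters of that length), 71.7% G and C, and 4 GC boxes. The promoters of *Ntf3* held 12 and 17 CpG dinucleotides, 61.0% and 55.7% G and C, and 1 and 2 GC boxes. That of *Ntrk2* held 23 CpG dinucleotides and 1 GC box, and the 7 entries of *Bdnf* held between 2 and 13 CpG dinucleotides. A GC box was found in 35.7% of all promoters on either strand. The letters TATAAA or TTTATA were in 0 of the entries of these 4 genes and in 13.6% of all promoters. These matches describe the sequence only.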

How the data were processed

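Poly(A) RNA was sequenced for the authors by a service provider as single-end reads on a HiSeq instrument. Per the paper's methods, reads were cleaned with SOAPnuke and aligned to mm9 with HISAT2. Per the labels, the processing notes name mm10 and RSEM. The deposited tables hold no coordinates, so the build behind the counts is not settled. For each Entrez gene with reads the authors deposited an expected count as RSEM estimates it, a transcript length in bases, which is another value per gene and library, and an FPKM value scaled to length and library. Whether counting used strand is not given in the sources used here. RefSeq entries Gm53063 and Gm39038 overlap *Ntrk2* and *Ntrk3* and were not listed.

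From these files, log2 fold changes (pseudocount 0.1, cutoff 0.5, genes listed in all 4 libraries) and Clopper-Pearson intervals on counts rounded to whole reads were computed with Python 3.11.15 and scipy 1.17.1. Counting intervals and floors cover counting error only, since PCR reads carry no molecular identifiers. edgeR 4.0.16 and DESeq2 1.42.0 tested rounded counts with the 2 WT libraries as the only replicates (genes kept by edgeR's filter at a minimum count of 10), and p-values measure only the spread between those pools. The names of the deposited tables place WT_1 with TRKC+/- and WT_2 with AdNTF3-Tg, and this was not used to group libraries. Symbols matched 17619 identifiers (99.7%) in a RefSeq table on GRCm38.p6, also the source of positions. The genes and lists were chosen with earlier results of these data known. Genes were named when members, when called with a mean of at least 1 FPKM, when among the 3 highest of a pathway list or the 2 highest of a marker list, or when nearest in profile to a member with at least 50 reads in every library. Some further genes that the rule covers are not reported here. Methods were tested on simulated data.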

Additional observations from a re-analysis of the deposited data

How the results depend on the processing

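Of 88 log2 fold changes of the 5 genes under the alternatives, 85 kept their direction and 5, all of *Bdnf*, passed the cutoff. *Ngfr* changed sign with the WT library used, from −0.18 to 0.01 in the library labelled TRKC+/- and from −0.08 to 0.10 in AdNTF3-Tg, while *Ntrk3* stayed between 0.09 and 0.15 and between −0.11 and −0.07. Of the 7 genes, 1 was called in the library labelled TRKC+/- with unlisted genes taken as 0 (*Ntf3*, on 2 reads), where 1315 of all genes were. Leaving out a WT library gave 0 to 1 called gene in each mutant, which was *Bdnf* in the library labelled TRKC+/- without WT_1 (with 1933 of 15275 genes) and in AdNTF3-Tg without WT_2 (with 2116).

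Counts over all genes (653 in the library labelled TRKC+/-, 871 in AdNTF3-Tg and 2044 between the WT libraries) moved with the settings. They were 105, 165 and 633 with a pseudocount of 1, 209, 332 and 926 when genes averaging under 1 FPKM were left out, and 1315, 1552 and 3381 with unlisted genes taken as 0. In the mutants they were 135 and 178 with a cutoff of 1, 96 and 195 where the counting interval also had to exclude 0, 1 and 0 with edgeR, and 2 and 0 with DESeq2. Without 1 WT library they ranged from 1632 to 1933 and from 2033 to 2116, since a call then needed 1 comparison. The cause of the other shifts was not tested. No paired analysis was possible because each mutant has 1 library. Depth limits the ligand genes most: at 7 reads or fewer, changes of several-fold lie inside the counting intervals.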
